A study of Mus musculus with 8 samples.

Results

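Loss of RBP2 was examined in mouse embryonic stem (ES) cells kept with LIF (leukemia inhibitory factor), a cytokine that holds these cells in an undifferentiated state. The comparison set the 2 samples of Rbp2-/- ES cells with LIF against the 2 samples of Rbp2f/f ES cells with LIF, chosen by genotype and culture medium in the labels, so 4 of the 8 samples of the series are its members. The other 4 samples, Rbp2f/f and Rbp2-/- cells after 6 days in medium without LIF, entered the estimate of the spread and are given beside the results. No drug or other agent is named for any group. Rbp2f/f is the usual notation for cells with both copies flanked by recombination sites and still in place, and Rbp2-/- for cells lacking both. The labels call the samples of a group biological replicates. They do not say how many clones or cultures the samples came from, how the deletion was made, or whether feeder cells were present, so the p-values measure only the spread between these samples, which may be technical.

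RBP2 is retinoblastoma-binding protein 2, now called KDM5A, an enzyme that removes methyl groups from lysine 4 of histone H3. Trimethylation of this lysine marks the promoters of active genes, and KDM5A was first known as a partner of the retinoblastoma protein RB. Its ARID domain binds DNA, and it has been linked to cell cycle exit and differentiation. ES cells with LIF express few lineage genes, many of which carry this mark together with the Polycomb mark on lysine 27.

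Transcripts were measured on Affymetrix 430 2.0 arrays for mouse, 1 array per sample. The deposited intensities are linear and in arbitrary units. Replicate 2 of Rbp2-/- with LIF was dimmer than the rest, with a trimmed mean at 65.5% of that of the other arrays, against 97.3% to 115.7% for the other 7. All 8 arrays were therefore given the same distribution by quantile normalization, and every intensity below is on that scale unless stated. Each gene was read from its brightest probe set, and 10916 of 18194 genes were bright enough to test. After normalization that array remained closer to the arrays without LIF, at a mean correlation across genes of 0.912 with Rbp2f/f and 0.910 with Rbp2-/-, than replicate 1 of its group at 0.873 and 0.888; genes are not independent replicates. Its correlation with replicate 1 was 0.958. Signal from a probe set for 18S ribosomal RNA, as deposited, was 706.1 and 441.4 for the Rbp2f/f samples with LIF, and 179.5 and 32.1 for the Rbp2-/- samples with LIF. The part of these differences in the results was not tested.

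The ES cell label was checked against markers. The summed intensity of 10 ES cell markers was 23564 and 25067 in the Rbp2f/f arrays with LIF, and 23495 and 20128 in the Rbp2-/- arrays with LIF, against 4340 to 5907 without LIF. None of the 10 passed the test, and 2 were higher and 4 lower on both Rbp2-/- arrays. Over all tested genes 18.5% were higher and 21.5% lower. A sum of linear intensities mostly follows its brightest members. The 10 markers of feeder fibroblasts summed to 602.9 and 363.2 in Rbp2f/f and to 838.9 and 764.6 in Rbp2-/-, with Lum and Fap under 16 on all 4 arrays. Of these 10 feeder markers, 4 were higher and 2 lower on both Rbp2-/- arrays. Only 6 of the 10 were bright enough to test, and these counts include untested members. The shares over tested genes are therefore not their measure. Markers of primitive or visceral endoderm summed to 242.7 to 267.4 on the 4 arrays, with Sox17, Afp, Ttr and Apoa1 under 16. The mesoderm markers summed to 327.3 and 214.2 on the Rbp2f/f arrays and 588.2 and 436.7 on the Rbp2-/- arrays, with Pdgfra and Tbx6 under 16. Trophoblast markers summed to 639.6 and 425.3 against 956.7 and 433.8, with Tpbpa under 16. Neural progenitor markers summed to 681.4 and 697.5 against 288.0 and 399.1, with Neurog2 and Hes5 under 16. Olig2, 1 of these markers, read 270.6 and 368.0 against 82.3 and 136.8 by itself. In bulk samples, fewer cells of a type and less RNA per cell cannot be told apart.

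Kdm5a itself, on chromosome 6, fell. At the brightest of its probe sets the Rbp2f/f arrays read 134.1 and 167.7, and the Rbp2-/- arrays 34.1 and 43.5. The groups did not overlap, and 25.7% of the mean signal was left, a log2 difference of -1.60 ± 0.22 (standard error; limma adjusted p = 0.0713). It no longer passed when any array other than replicate 1 of Rbp2-/- with LIF was left out (adjusted p from 0.106 to 0.176). The other pair of bright probe sets left 20.4% and 22.9%. A further 3 Kdm5a probe sets, all under 20 on these arrays, left 91.7%, 167% and 138.7%, and those read near the bottom of the scale. Without LIF the brightest one gave 209.6 and 224.9 for Rbp2f/f, 95.0 and 66.8 for Rbp2-/-, and so left 37.2%. In that medium the other bright pair left more, 41.1% and 49.6%. The positions of the probes were not set against the deleted exons, so these values serve as a check of the labels and not as a measure of intact transcript.

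No other H3K4 demethylase on the list passed. Kdm5b, the paralog most linked to ES cells and early lineages, read 957.3 and 1148.1 on the Rbp2f/f arrays and 1105.8 and 830.6 on the Rbp2-/- arrays, a difference of -0.13 ± 0.18 (limma adjusted p = 0.784). The arrays of the genotypes overlapped. Kdm5c, the X-linked paralog, also overlapped, at 219.9 and 282.0 against 281.0 and 255.2 (0.10 ± 0.18). Kdm5d, the Y-linked paralog, was too dim to be tested, at 8.6 and 5.6 on the Rbp2f/f arrays and 34.6 and 9.3 on the Rbp2-/- arrays. Kdm1a, which encodes the demethylase LSD1, read 1454.1 and 1452.8 against 1041.6 and 1272.1 (-0.33 ± 0.15, adjusted p = 0.381), lower on both Rbp2-/- arrays without passing. Kdm1b, its paralog, overlapped (-0.05 ± 0.24), and Kdm2b, a CpG-binding demethylase that recruits Polycomb, was at -0.18 ± 0.16 (adjusted p = 0.640). Among 16 subunits of the H3K4 methyltransferase complexes, 6 were lower on both Rbp2-/- arrays, 1 was higher and none passed. Over all 10916 tested genes, 21.5% were lower and 18.5% higher on both Rbp2-/- arrays, the shares against which such counts are to be read. Kmt2d, the enhancer H3K4 methyltransferase MLL4, read 144.3 and 135.4 on the Rbp2f/f arrays and 87.5 and 80.9 on the Rbp2-/- arrays (-0.64 ± 0.17, adjusted p = 0.199).

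In all, 26 of the 10916 tested genes passed at an adjusted p under 0.10, which is 0.238%. Of these, 17 were higher in Rbp2-/- (0.156%) and 9 were lower (0.0824%). The test was limma's moderated test with Benjamini-Hochberg adjustment over all tested genes, with 4 residual degrees of freedom. The threshold of 0.10 was set knowing that 0 genes pass 0.05 after normalization, where 1428 had an unadjusted p under 0.05. The adjusted p of the 26 ran from 0.0713 to 0.0991, and the next gene stood at 0.101, so the limit falls within a continuous series of values. The arrays of the genotypes did not overlap for any of the 26, and their absolute log2 differences ran upward from 0.97. Leaving out replicate 2 of Rbp2-/- with LIF left 0 genes and leaving out its replicate 1 gave 167. The number was 3 or 10 when replicate 1 or 2 of Rbp2f/f with LIF was omitted, and 0 when any 1 of the arrays lacking LIF was. With only the 4 arrays with LIF in the fit it was 0. All 26 kept their direction in each of these fits, but genes whose arrays do not overlap could hardly do otherwise.

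**Figure D1:**
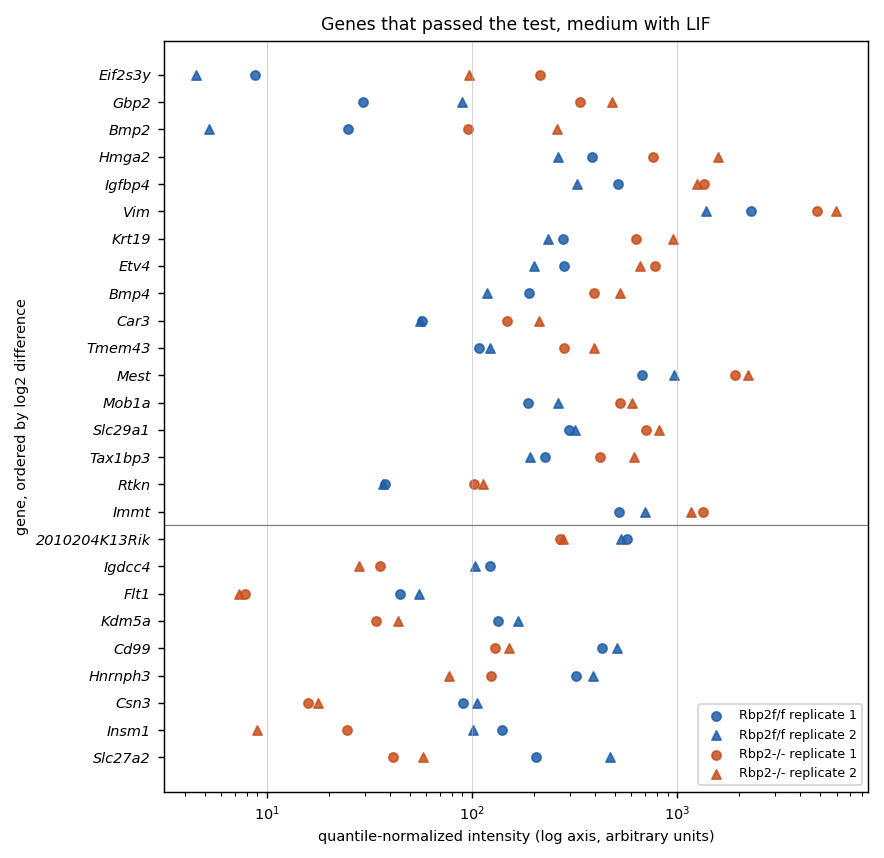
Quantile-normalized intensity (log axis, arbitrary units) of the 26 genes that passed with LIF, 1 row per gene, ordered by log2 difference. Blue marks are the 2 Rbp2f/f arrays and orange marks the 2 Rbp2-/- arrays (circles replicate 1, triangles replicate 2); no row shows an overlap of colours, and the 17 genes above the line are higher in Rbp2-/-.

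Among the genes that rose, a pair encode bone morphogenetic proteins, secreted ligands that act through SMAD1 and SMAD5, hold ES cells undifferentiated together with LIF and induce mesoderm in the embryo. Bmp2 read 24.8 and 5.2 on the Rbp2f/f arrays and 95.4 and 260.4 on the Rbp2-/- arrays. The genotypes did not overlap, although the Rbp2-/- arrays differed from each other by more than 2 times (2.58 ± 0.44, adjusted p = 0.0991). Bmp4 read 190.8 and 118.0 on the Rbp2f/f arrays and 393.6 and 529.2 on the Rbp2-/- arrays (1.51 ± 0.25, adjusted p = 0.0892), or 2.99-fold higher in the mean. In the list of 26 tested BMP and TGF-beta ligands, inhibitors and targets, these 2 passed as higher. A further member, the BMP antagonist Nog, read 18.8 and 20 against 41.8 and 86.7, which did not pass (1.12 ± 0.27, adjusted p = 0.175). Over that list 3 members were higher on both Rbp2-/- arrays and 6 were lower, which is 11.5% and 23.1%, beside 18.5% and 21.5% over all genes. The median log2 difference of the list was -0.03, and -0.075 to 0.088 with any 1 array with LIF left out. Here and in every list below, a median with an array left out is relative to the median of all tested genes in that fit. Medians with no array left out are given as they are, and the median over all tested genes was then -0.01.

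Other risen genes encode filaments, a chromatin protein, a growth factor binding protein and a transcription factor. Vim, the intermediate filament vimentin, read 2286.0 and 1380.9 on the Rbp2f/f arrays and 4795.9 and 5990.6 on the Rbp2-/- arrays (1.58 ± 0.21, adjusted p = 0.0713). Krt19, a keratin of simple epithelia and trophectoderm, read 276.8 and 236.4 against 632.5 and 955.8 (1.55 ± 0.23, adjusted p = 0.0713). Hmga2, an architectural chromatin protein of proliferating embryonic cells, read 385.2 and 262.5 against 765.7 and 1590.0 (1.75 ± 0.30, adjusted p = 0.0991). Replicate 2 of Rbp2-/- was the higher of its pair for all 3 of these genes. Igfbp4, which binds insulin-like growth factors outside the cell, read 514.1 and 324.9 against 1354.6 and 1259.5 (1.64 ± 0.20, adjusted p = 0.0713). Here the Rbp2-/- arrays lay close together, at 3.12-fold the Rbp2f/f mean. Etv4, an ETS transcription factor induced by FGF signalling, read 281.0 and 201.2 against 784.0 and 661.3 (1.53 ± 0.27, adjusted p = 0.0991).

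The remaining genes that rose have diverse functions. Gbp2, an interferon-induced GTPase of host defence, read 29.4 and 89.9 on the Rbp2f/f arrays and 338.2 and 479.8 on the Rbp2-/- arrays (2.60 ± 0.41, adjusted p = 0.0808). Car3, a cytosolic carbonic anhydrase, read 57.4 and 56.0 against 147.7 and 213.0, and Slc29a1, an equilibrative nucleoside transporter, read 298.8 and 320.0 against 710.0 and 814.3. For both, the spread within a genotype was small beside the gap between them (1.41 ± 0.22 and 1.26 ± 0.19, adjusted p = 0.0713 for each). Tmem43, a protein of the inner nuclear membrane, rose by 1.41 ± 0.20, and Mob1a, an activator of the kinases of the Hippo pathway, by 1.28 ± 0.20. Tax1bp3, a protein made of a PDZ domain, rose by 1.23 ± 0.20, from 227.5 and 192.0 to 423.1 and 616.0. Mest, an imprinted gene expressed from the paternal copy, read 679.1 and 970.0 against 1914.3 and 2216.4 (1.33 ± 0.20, adjusted p = 0.0713). Rtkn and Immt, the latter an organizer of mitochondrial cristae, are outside the rule for named genes and given to complete the count; they rose by 1.21 and 1.04.

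Eif2s3y, a translation factor gene on the Y chromosome, showed the largest increase among the 26 on the log2(value + 16) scale, and by the ratio of means. It read 8.8 and 4.5 in Rbp2f/f, near the bottom of the scale, and 215.3 and 96.7 in Rbp2-/- (2.84 ± 0.39, adjusted p = 0.0713). The same held without LIF, at 13.8 and 3.8 against 182.2 and 99.8. Uty, the Y-linked paralog of the H3K27 demethylase gene Kdm6a, read 21.2 and 2.7 against 72.9 and 69.2 with LIF, which did not pass (1.72 ± 0.43, adjusted p = 0.179). Xist, the RNA that coats an inactive X chromosome, was dim throughout, at 31.8 and 51.0 against 31.0 and 28.5. Neither Eif2s3y nor Uty overlapped between the genotypes in either medium, and a difference in origin or karyotype between the lines cannot be told apart from the deletion.

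In all 9 genes fell, Kdm5a among them. Slc27a2, which activates very long-chain fatty acids, had the largest decrease among the 9 on the log2(value + 16) scale, while by the ratio of mean intensities Insm1 fell more, at 7.17-fold against 6.84-fold. Slc27a2 read 206.0 and 472.6 on the Rbp2f/f arrays and 41.3 and 58.0 on the Rbp2-/- arrays (-2.34 ± 0.36, adjusted p = 0.0713). Insm1, a zinc-finger factor of neuroendocrine differentiation, read 139.8 and 101.0 against 24.6 and 9.0 (-2.08 ± 0.31, adjusted p = 0.0713). Csn3, the gene for kappa-casein, read 90.3 and 106.3 against 15.9 and 17.8. It was nearly uniform within each genotype (-1.80 ± 0.26). Hnrnph3, an RNA-binding protein of the hnRNP H family, read 322.4 and 389.3 against 124.3 and 77.7 (-1.69 ± 0.25). Cd99, a cell surface glycoprotein of leukocyte migration, read 429.2 and 510.9 against 130.3 and 152.1, with 3.33-fold more signal in Rbp2f/f (-1.63 ± 0.27, adjusted p = 0.0892). Flt1, which encodes VEGF receptor 1, read 44.6 and 55.4 against 7.8 and 7.3 (-1.48 ± 0.23), and Igdcc4, an immunoglobulin superfamily receptor, 122.3 and 103.2 against 35.6 and 28.0 (-1.43 ± 0.22). The last of the 9 is known by a clone name only. Tcfl5, a bHLH factor of germ cells, was next in order, at 413.9 and 501.6 against 218.7 and 190.6, and did not pass (-1.10 ± 0.19, adjusted p = 0.101).

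The ARID domain of KDM5A is known to bind the letters CCGCCC, so promoters were searched for them on either strand, in RefSeq windows (assembly GRCm38.p6) of 250 bases before to 50 after each gene's start. The motif lay in 66.7% of the promoters of the 18 passing genes found in that table, in 66.8% of those of 8855 tested genes and in 35.9% of all 27025 promoters. The passing genes therefore held it as often as tested genes in general. By direction, 8 of 13 risen genes and 4 of 5 fallen genes held it. The 250 bases before the start are shown for Slc27a2, which fell, with 2 matches and 19 CpG dinucleotides, and for Gbp2, which rose, with 0 matches and 1 CpG. Both were picked after their values were seen. Among the passing genes they had the largest decrease and the largest autosomal increase on the log2(value + 16) scale. By the ratio of means, the passing genes Insm1 (7.17-fold) and Bmp2 (11.8-fold) changed more. They lie at chr2:126552774-126553023 and chr3:142620413-142620662, both on the plus strand, with matches in capitals. A match here is a description of letters and not a site of binding.
Slc27a2: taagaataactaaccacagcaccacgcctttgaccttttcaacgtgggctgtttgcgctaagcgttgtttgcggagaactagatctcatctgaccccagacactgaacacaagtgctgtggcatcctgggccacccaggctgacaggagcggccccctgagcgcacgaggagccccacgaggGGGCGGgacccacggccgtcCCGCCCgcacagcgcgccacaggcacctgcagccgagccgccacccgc
Gbp2: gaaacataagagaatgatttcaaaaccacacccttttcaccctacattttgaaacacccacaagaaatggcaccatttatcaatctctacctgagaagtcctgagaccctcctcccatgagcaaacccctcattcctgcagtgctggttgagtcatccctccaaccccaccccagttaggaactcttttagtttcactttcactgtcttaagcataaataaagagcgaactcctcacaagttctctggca

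Chromosome 6, which carries Kdm5a, stood apart from the other chromosomes. Its 526 tested genes had a median log2 difference of 0.31 in Rbp2-/- with LIF, and 80.2% of them were positive. Chromosome 11, with 921 tested genes, had a median of 0.21 and 74.2% positive. The other 18 chromosomes with a median, the Y left aside, ran from -0.095 to -0.003, with 37.7% to 49.7% of genes positive, and the median over all tested genes was -0.01. On chromosome 6 both Rbp2-/- arrays lay above both Rbp2f/f arrays for 49.8% of genes and below them for 4.37%. On chromosome 11 these shares were 33.3% and 4.78%. Over all 10916 genes they were 18.5% and 21.5%, and on the other chromosomes the share above was 10.9% to 19.6%. Together, chromosomes 6 and 11 held 13.3% of the tested genes, 28.2% of those higher on both arrays and 2.85% of those lower on both.

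**Figure D2:**
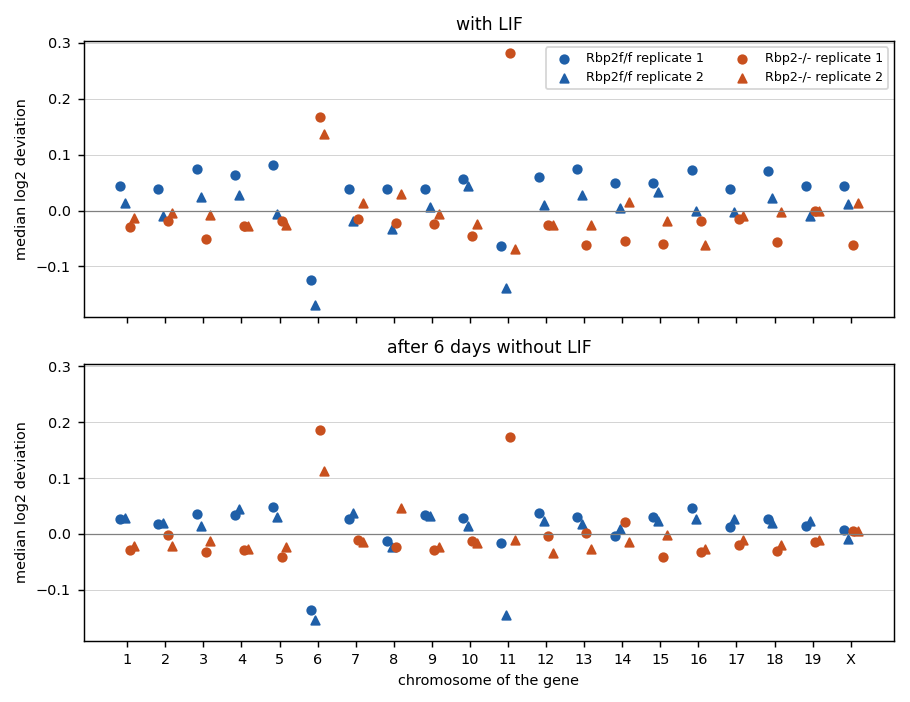
Median log2 deviation of the tested genes of each chromosome (x axis) from their mean over the 4 arrays of a medium, with LIF above and after 6 days without LIF below; each mark is 1 array. Both Rbp2-/- arrays lie above all others on chromosome 6 in both media, and on chromosome 11 replicate 1 of Rbp2-/- does.

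The shift of chromosome 6 was seen on each array. The median deviation of its genes from their mean over the 4 arrays was -0.125 and -0.168 on the Rbp2f/f arrays and 0.168 and 0.137 on the Rbp2-/- arrays. For the other chromosomes except 11 and Y, this deviation lay between -0.061 and 0.081 on all 4 arrays. Without LIF, on other arrays, chromosome 6 stood at -0.135 and -0.153 for Rbp2f/f and 0.185 and 0.112 for Rbp2-/-, a median difference of 0.28. The labels do not say whether samples with and without LIF came from the same lines. A like difference in both media, here and for single genes, may therefore not be an independent repeat. With 2 arrays against 2, an exact permutation test of such a value cannot give a p below 0.333, and no test was run. Over its 197 brightest genes, where the added constant matters least, the median was 0.386, a fold of 1.307. Divided into 10 bins along the order of genes, chromosome 6 had medians from 0.225 to 0.377, all above the medians of the other 18 chromosomes. Leaving out any 1 array with LIF gave 0.270 to 0.331.

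Kdm5a lies in bin 8 of these. Of its 10 nearest tested neighbours on each side, 17 of 20 were positive, with a median of 0.393, and 13 were higher on both Rbp2-/- arrays. These are to be read beside all of chromosome 6, with 80.2% positive, 49.8% higher on both arrays and a median of 0.31. None of the neighbours passed. Wnk1, a kinase of ion transport, read 1166.7 and 1367.7 on the Rbp2f/f arrays and 1937.9 and 2184.7 on the Rbp2-/- arrays (0.70 ± 0.13, adjusted p = 0.125), and Bid, a proapoptotic BCL2 family member, read 322.0 and 437.7 against 663.4 and 1006.4 (1.09 ± 0.29, adjusted p = 0.199).

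Chromosome 11 differed between the replicates. Against the Rbp2f/f mean, its median was 0.380 in replicate 1 of Rbp2-/- with LIF and 0.032 in replicate 2, and 0.249 and 0.076 without LIF. Its shift therefore rested on replicate 1, and without that array its median with LIF was 0.034. Replicate 1 was higher in all 10 bins of gene order, from 0.279 to 0.435. Replicate 2 stood at 0.337 in bin 1 and between -0.068 and 0.092 in the rest, and without LIF at 0.411 in bin 1. That first bin holds Grb10, an imprinted adaptor gene that restrains insulin signalling, singled out here after its values were seen. It read 839.3 and 1708.6 on the Rbp2f/f arrays and 97.3 and 195.3 on the Rbp2-/- arrays and did not pass (-2.97 ± 0.65, adjusted p = 0.148).

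**Figure D3:**
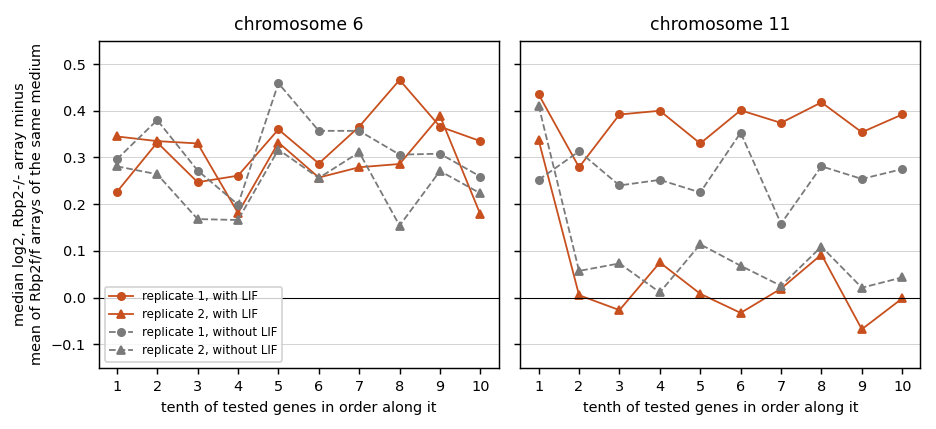
Median log2 difference of each Rbp2-/- array from the mean of Rbp2f/f in that medium, in 10 bins of tested genes in order along chromosomes 6 (left) and 11 (right). On chromosome 6 all 4 arrays lie above 0.15 in every bin, and on chromosome 11 replicate 1 lies above 0.15 throughout while replicate 2 does so in bin 1 only.

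These shifts bear on the list of passing genes. Chromosome 6 held 6 of the 26, of which Tmem43, Mest, Mob1a, Rtkn and Immt rose and Kdm5a fell, and chromosome 11 held 4, Igfbp4, Krt19, Etv4 and Tax1bp3, all of which rose. The other 15, leaving out Eif2s3y, lie on other chromosomes. DNA copy number was not measured, and a change of dosage along a chromosome, a difference in line history and an effect of losing RBP2 cannot be told apart here.

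Imprinted genes, which are expressed from a single parental copy, were also examined by chromosome. Of 39 tested, 11 were higher on both Rbp2-/- arrays and 7 lower, or 28.2% and 17.9%, beside 18.5% and 21.5% over all genes. The 39 include Nckap1, which took the place of the listed H19 through a synonym and was not chosen as an imprinted gene. Its arrays overlapped, so it enters the percentages and the median but neither count. The median of the 39 was 0.11, and 0.092 to 0.346 with any 1 array with LIF left out, the highest without replicate 1 of Rbp2-/-. On chromosome 6, 3 of 6 were higher and none lower, and on chromosome 7, 2 of 13 were higher and 5 lower. Mest passed. Sgce and Peg10, neighbours on chromosome 6 expressed from the paternal copy, encode a sarcoglycan and a retrotransposon-derived placental protein. They read 58.1 and 48.1 against 141.7 and 336.4, and 58.6 and 251.3 against 509.2 and 785.7. Neither passed (1.77 ± 0.32 and 2.20 ± 0.48, adjusted p = 0.119 and 0.148). Without LIF both were again higher on each Rbp2-/- array, at 2.01 ± 0.32 and 1.56 ± 0.48.

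Of the 26 genes that passed with LIF, 18 had the same sign without LIF, beside 54.2% of all tested genes. In the same direction, 15 did not overlap between the genotypes without LIF, and 4 did not overlap in the opposite direction. The 15 include Eif2s3y and all 6 passing genes of chromosome 6. Over all genes, both Rbp2-/- arrays without LIF lay above both Rbp2f/f arrays for 26.0% of genes and below for 29.2%. On chromosome 6 they lay above for 57.8% and below for 9.51%, and 68.4% of its genes had the same sign in both media. Without LIF, 0 genes passed (0% of 10916; limma, 1556 at an unadjusted p under 0.05), and the interaction, which tests whether the genotype effect differed between media, passed for 0 genes (0%; 1220 at an unadjusted p under 0.05, smallest adjusted p 0.311). For Eif2s3y the differences were 2.84 with LIF and 2.64 without, for Mob1a 1.28 and 0.75, and for Kdm5a -1.60 and -1.28. Cd99 was at -1.63 with LIF and -1.61 without, where it read 562.1 and 625.1 against 133.2 and 252.5, and Mest was at 1.33 and 1.12. For 16 of the 26 the absolute difference without LIF was under 0.5. The share of all tested genes under that value was not counted, so nothing is drawn from it.

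**Figure D4:**
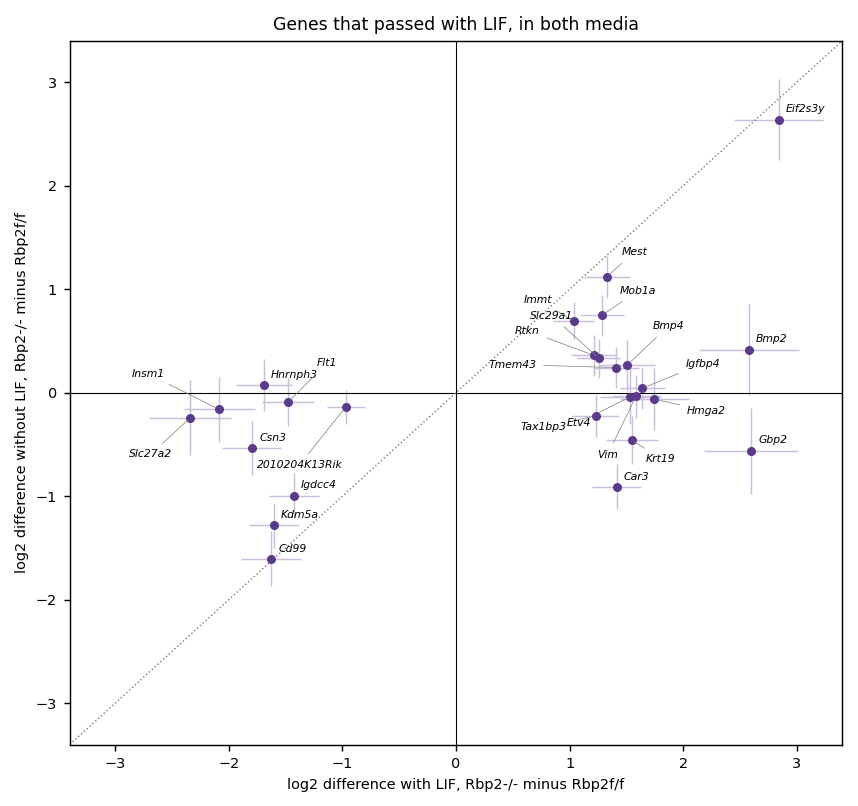
Log2 difference, Rbp2-/- minus Rbp2f/f, with LIF (x axis) and without LIF (y axis) for the 26 genes that passed with LIF; bars are standard errors of the fit and the dotted line marks equal differences. Eif2s3y, Mest, Cd99 and Kdm5a lie near that line, while Hmga2, Igfbp4, Vim, Etv4, Hnrnph3 and Flt1 lie near 0 on the y axis.

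The levels in Rbp2f/f cells without LIF are given beside those of the genotype comparison. No count is drawn from them, because the passing genes were chosen in part by their values on the Rbp2f/f arrays with LIF. Vim read 6866.0 and 6683.0 in Rbp2f/f without LIF, above its 4795.9 and 5990.6 in Rbp2-/- with LIF. Igfbp4 read 4840.1 and 4191.3 there, Hmga2 3888.4 and 3385.4, and Bmp2 402.3 and 414.5. Slc27a2 and Insm1, by contrast, read 13.8 and 6.5, and 5.7 and 4.8, in Rbp2f/f without LIF. Slc29a1 and Etv4 rose in Rbp2-/- with LIF although they read lower in Rbp2f/f without LIF, at 147.5 and 135.7, and 107.2 and 107.8. Replicate 2 of Rbp2-/- with LIF, the array closest to those without LIF, was the higher of its pair for Vim, Hmga2, Bmp2, Bmp4, Krt19 and Gbp2, and replicate 1 for Igfbp4 and Etv4. Its part in these results was not tested beyond leaving it out.

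The gene groups of ES cell biology were described by the number of members whose Rbp2-/- arrays both lay above or below both Rbp2f/f arrays, to be read against 18.5% above and 21.5% below over all genes. Core and naive pluripotency factors, which hold the undifferentiated state, had 6 of 26 above, 5 below, none passing and a median of -0.02 (-0.175 to 0.172 with any 1 array with LIF left out). Nr5a2, an orphan receptor of the naive network, read 225.1 and 122.2 on the Rbp2f/f arrays and 339.1 and 337.0 on the Rbp2-/- arrays (0.96 ± 0.26, adjusted p = 0.199). Klf4 read 694.6 and 594.1 against 840.6 and 1007.2 (0.51 ± 0.18), and Sox2 3111.5 and 3131.6 against 2444.0 and 1519.2 (-0.69 ± 0.21, adjusted p = 0.236). In the LIF receptor and STAT3 pathway, 3 of 18 were above and 4 below. Stat3, the transcription factor that LIF activates, read 319.2 and 325.8 against 515.0 and 499.8 (0.63 ± 0.16, adjusted p = 0.181); it lies on chromosome 11. Pim2, a STAT3-responsive kinase, read 829.9 and 1516.1 against 406.7 and 366.8 (-1.50 ± 0.31, adjusted p = 0.144).

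Genes of the formative and primed epiblast, the states that follow naive pluripotency, were below in 9 of 17 cases and above in 1, Etv4, which passed. Their median was -0.61. Otx2, a homeobox factor that drives this transition, read 128.8 and 237.0 on the Rbp2f/f arrays and 45.8 and 37.4 on the Rbp2-/- arrays (-1.74 ± 0.52, adjusted p = 0.226). The de novo DNA methyltransferases Dnmt3b and Dnmt3a were also lower on both arrays, at 3439.4 and 4112.5 against 2021.2 and 2118.0, and 417.3 and 533.6 against 374.2 and 183.8 (-0.86 ± 0.26 and -0.81 ± 0.29). Neither passed. The low median rested in part on replicate 2 of Rbp2f/f. Without that array it was -0.005 relative to all genes, and without replicate 1 of that group it was -0.978.

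Genes of the mesoderm and of mesenchyme leaned the other way. Of 18 mesoderm derivative genes 8 were above and 1 below, with a median of 0.39, and Bmp4 passed. Aplnr, the apelin receptor, read 8.6 and 10.5 against 24.9 and 88.2, and Msx2, a homeobox target of BMP signalling, 106.4 and 55.3 against 124.6 and 293.2, and neither passed. Of 19 mesenchymal genes 7 were above and 2 below, with a median of 0.39, and Vim passed. Cd44, the hyaluronan receptor, read 86.2 and 26.5 against 177.6 and 401.5 (2.11 ± 0.44, adjusted p = 0.144). Feeder fibroblast markers had 7 of 15 above and 1 below with a median of 0.575, none passing; Col5a1, a fibrillar collagen, read 109.0 and 112.3 against 283.1 and 622.3 (1.79 ± 0.32, adjusted p = 0.101) and Col1a2 115.2 and 59.5 against 243.8 and 253.5. Leaving out any 1 array with LIF gave medians of 0.183 to 0.635 for mesoderm, 0.167 to 0.864 for mesenchymal and 0.269 to 0.911 for feeder genes. The summed mesoderm and feeder markers were likewise higher in both Rbp2-/- arrays, and their part in these shifts was not tested. Contractile targets of SRF and YAP had 5 of 20 above and 1 below, with a median of 0.35. It turned to -0.11, relative to all genes, without replicate 2 of Rbp2-/-.

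Epithelial genes were below in 9 of 23 cases and above in 2, with a median of -0.19, although Krt19 rose. Relative to all genes, the median was -0.03 without replicate 1 of Rbp2-/- and -0.44 without replicate 1 of Rbp2f/f. Esrp1, an epithelial regulator of splicing, read 366.0 and 455.6 against 149.0 and 131.5 (-1.44 ± 0.27, adjusted p = 0.121). It was 2.93-fold brighter in Rbp2f/f and did not overlap in either medium. Rab25, a small GTPase of epithelia, read 89.4 and 134.3 against 35.9 and 73.4. Of 11 neural progenitor genes 4 were below and 2 above, Vim among the latter. Olig2, a bHLH factor of neural progenitors, read 270.6 and 368.0 against 82.3 and 136.8 (-1.44 ± 0.36, adjusted p = 0.175). The primitive streak list had 3 of 14 above and 4 below with a median of 0.465, extraembryonic endoderm 5 of 15 above and 2 below (0.33), and trophoblast-associated genes 5 of 18 above and 1 below (0.44), where Krt19 passed. Leaving out any 1 array with LIF gave 0.170 to 0.911 for the streak list, 0.132 to 0.354 for endoderm and 0.079 to 0.842 for trophoblast, the last 0.114 without genes of chromosomes 6 and 11. Wnt ligands, targets and antagonists had 4 of 22 in each direction, and the FGF and ERK feedback list 4 of 22 above and 3 below, with Etv4 passing.

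**Figure D5:**
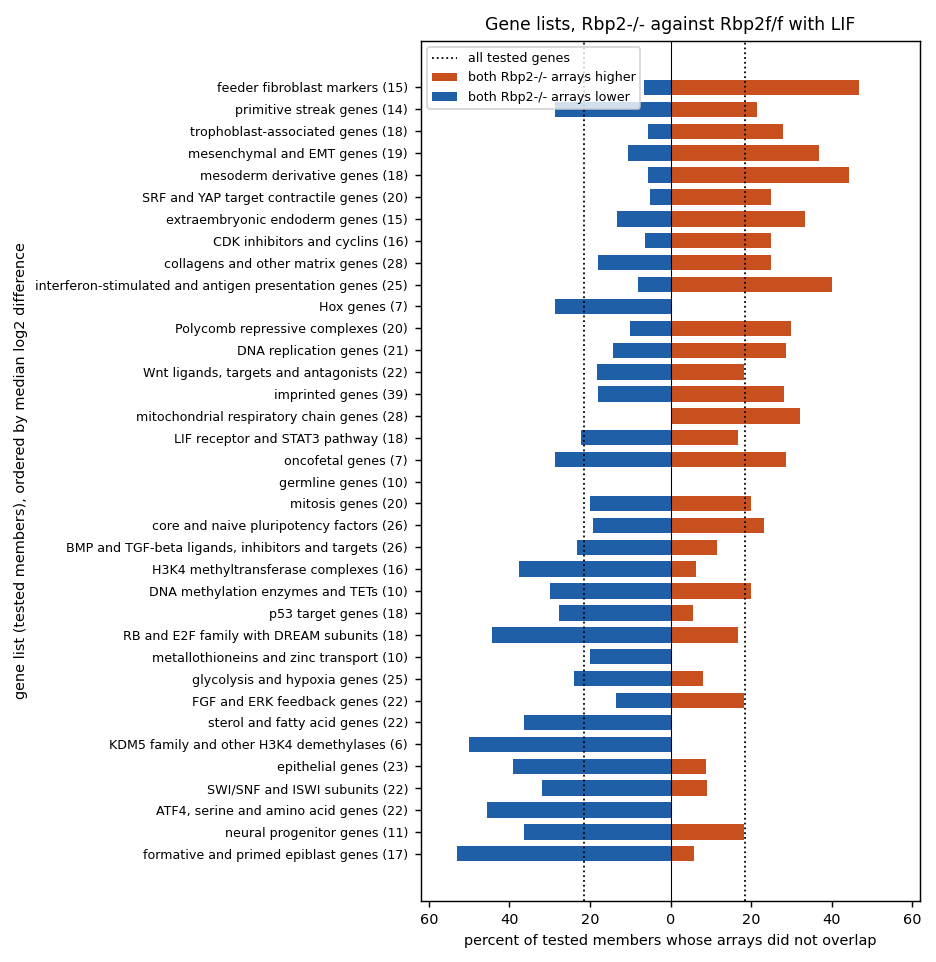
Percent of the tested members of each gene list (number in brackets) whose 2 Rbp2-/- arrays both lay above (orange, to the right) or both below (blue, to the left) the 2 Rbp2f/f arrays with LIF, ordered by median log2 difference. Dotted lines mark all tested genes, 18.5% above and 21.5% below; feeder and mesoderm lists extend past it to the right, and formative epiblast and ATF4 lists to the left.

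In the lists of RB and E2F, cell cycle, Polycomb and SWI/SNF genes none passed. Of 18 genes of the RB and E2F family and the DREAM complex, 8 were below and 3 above, with a median of -0.07 (-0.242 to 0.038 with any 1 array with LIF left out). E2f3, an activator of cell cycle genes, read 296.2 and 302.8 against 191.7 and 211.8 (-0.54 ± 0.17), Hdac2, a histone deacetylase, 971.4 and 890.5 against 736.7 and 650.1 (-0.42 ± 0.15), and E2f6, a repressor, 130.1 and 172.5 against 235.6 and 258.9 (0.66 ± 0.19). None of these adjusted p was under 0.213. CDK inhibitors and cyclins had 4 of 16 above and 1 below, with Ccnd3, a cyclin of the first gap phase, at 1027.4 and 1021.8 against 1441.1 and 1340.7 (0.43 ± 0.14). DNA replication genes had 6 of 21 above and 3 below, and mitosis genes 4 of 20 in each direction. Polycomb genes had 6 of 20 above and 2 below with a median of 0.17, or 0.06 without genes of chromosomes 6 and 11. Without replicate 1 of Rbp2-/- it was 0.05 relative to all genes. Ezh2, the H3K27 methyltransferase, read 1455.8 and 1214.9 against 1516.1 and 1835.3, and lies on chromosome 6. SWI/SNF and ISWI subunits had 7 of 22 below and 2 above. Smarca1, an ISWI ATPase, read 91.4 and 146.8 against 26.2 and 18.8, a 5.30-fold difference in the mean that did not pass (-1.79 ± 0.34, adjusted p = 0.125).

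Interferon-stimulated and antigen presentation genes were above in 10 of 25 cases and below in 2, with a median of 0.21, and Gbp2 passed. Gbp3, of the same GTPase family, read 11.7 and 11 on the Rbp2f/f arrays and 42.4 and 68.1 on the Rbp2-/- arrays (1.36 ± 0.27, adjusted p = 0.128), and Psmb8, an immunoproteasome subunit, 17.2 and 20.1 against 58.2 and 42.4 (0.93 ± 0.21, adjusted p = 0.167). All 3 were dim in Rbp2f/f and did not overlap. Without genes of chromosomes 6 and 11 the median was 0.20, and leaving out any 1 array with LIF gave 0.076 to 0.433.

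In 3 metabolic lists, the members that did not overlap all lay on one side. Of 22 ATF4, serine and amino acid genes, which respond to amino acid shortage and build serine and proline, 10 were below and 0 above, with a median of -0.37 and none passing. Phgdh, which starts serine synthesis, read 1356.3 and 1870.1 against 797.7 and 1094.2 (-0.76 ± 0.21, adjusted p = 0.208), and Psph, which completes it, 250.9 and 440.0 against 207.2 and 122.7. Replicate 2 of Rbp2f/f was the higher of its pair for both genes, and without it the median of the list was 0.06 relative to all genes. Of 22 sterol and fatty acid genes 8 were below and 0 above, with a median of -0.11, and Slc27a2 passed. Acsl4, an acyl-CoA synthetase of arachidonate, read 342.3 and 381.4 against 188.5 and 154.6 (-1.01 ± 0.18, adjusted p = 0.101), and Idi1, of isoprenoid synthesis, 779.9 and 1047.9 against 581.2 and 546.8 (-0.67 ± 0.19). The median of this list, taken relative to all genes, turned to 0.11 without replicate 2 of Rbp2f/f and to 0.03 without replicate 2 of Rbp2-/-. Mitochondrial respiratory chain genes had 9 of 28 above and 0 below, with a median of 0.09 (0.070 to 0.162 with any 1 array with LIF left out). Ndufa4, of the terminal oxidase, read 1595.7 and 1866.7 against 2514.7 and 3080.9 (0.68 ± 0.15, adjusted p = 0.149) and lies on chromosome 6. Glycolysis and hypoxia genes had 2 of 25 above and 6 below, and p53 targets 1 of 18 above and 5 below, with none passing.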

How the data were processed

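Labelled cRNA came from 6 ug of column-purified total RNA, per the labels' protocols. The authors deposited linear intensity values, 1 per probe set and array. Summarisation, background correction and scaling (not given in the sources used here) are unknown, and only linearity could be checked. The platform's annotation paired 34958 of 45101 probe sets with 1 gene, 932 with several and 9211 with none. The intensities were quantile-normalized over all 8 arrays and taken as log2(value + 16), a scale on which a difference understates the fold of dim genes. A gene was its probe set of highest mean (18194 genes), tested if that mean reached the 40th percentile (10916). Group means of all 4 groups were fitted with limma 3.58.1 in R 4.3.3 (lmFit, eBayes with trend, 4 residual and 5.3 prior degrees of freedom), two-sided, with Benjamini-Hochberg adjustment. Errors of log2 values are standard errors from the fit. The number of arrays limits the precision.

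Named genes were the KDM5 list, the 15 largest increases and decreases that passed without overlap (a direction with under 10 was filled to 10 by p), and in each of 37 gene lists the 3 tested members of smallest p or all of a small list; exceptions are stated. Genes with clone names were counted only. The comparison, lists, threshold and alternatives were chosen with earlier results of these data known. Alternatives were other normalizations, pseudocounts, filters, variance models, array weights, probe set means, thresholds, a block for replicate number, and omission of single arrays. The fit was run on simulated log2 values with planted changes. Normalization, choice of probe sets and the filter were not part of that check. Chromosomes, gene order and promoters came from RefSeq tables of GRCm38.p6.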

Additional observations from a re-analysis of the deposited data

Results flagged for a closer look

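Of the 17 genes that passed as higher with LIF, 4 had both Rbp2-/- arrays below both Rbp2f/f arrays without LIF. Over all tested genes, both Rbp2-/- arrays lay below without LIF for 29.2%. The 4 were chosen in part by their values with LIF, which also enter the interaction. For Car3 the genotype effect with LIF minus that without LIF was 2.32 ± 0.31 on the log2 scale (limma interaction, adjusted p = 0.311), with 239.9 and 281.1 in Rbp2f/f without LIF against 117.0 and 146.1 in Rbp2-/-. For Krt19 it was 2.01 ± 0.32 (adjusted p = 0.337), with 1438.0 and 2002.5 against 1247.0 and 1213.1 without LIF. For Vim it was 1.62 ± 0.29 and for Tax1bp3 1.45 ± 0.29 (adjusted p = 0.337 for each), and the reading of Vim without LIF, 6866.0 and 6683.0 against 6577.3 and 6641.6, differed by little. None of the 4 passed the interaction test over all genes.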

How the results depend on the processing

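The count of 26 genes moved widely. Each of the 26 kept its direction in every setting where it was tested. That adds no support, because their arrays did not overlap and most settings hardly change the difference itself. Scaling to the trimmed mean, centring on the median, cyclic loess and robust variances gave 27, 29, 28 and 30. The values as deposited gave 123 (20 of them shared with the 26), with 104 lower. A pseudocount of 4 gave 13 (9 higher, 4 lower) and one of 64 gave 37, with 19 lower. The 60th percentile as filter gave 13 (9 higher, 4 lower), and the mean of all probe sets of a gene 3 (1 higher, 2 lower). Only the 4 arrays with LIF, no filter, no variance trend, array weights or an adjusted p under 0.05 each gave 0 in either direction, with 936, 1990, 1392, 963 and 1428 genes at an unadjusted p under 0.05. Leaving out each array in turn gave 0 to 167 genes, 0 to 105 higher and 0 to 62 lower. Kdm5a no longer passed with only the 4 arrays with LIF (-1.56), with the mean of its probe sets (-0.75), or, at -1.60, with no filter, no variance trend, array weights or the stricter threshold. Leaving out each array gave -1.76 to -1.45, and it passed in 1 of the 8, without replicate 1 of Rbp2-/- with LIF, with adjusted p from 0.0694 to 0.176. The median of chromosome 6 was 0.270 to 0.331 and that of chromosome 11 was 0.034 to 0.381 with an array with LIF left out; under other normalizations, relative to all genes, they were 0.320 to 0.325 and 0.218 to 0.232, an alternative added after seeing the data. With the replicate number as a block, 52 genes passed (29 higher, 23 lower), including all 26, and the smallest adjusted p was 0.0119, under 0.05 where none was without the block. Same-numbered deviations correlated at -0.066, -0.058 and -0.001 in the pairs of groups that include Rbp2f/f with LIF, and at 0.251, 0.271 and 0.254 in the other 3, so the numbers were not taken to pair the samples of this comparison.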
